A study of Mus musculus with 52 samples.

Results

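o-Aminoazotoluene (AAT) is an azo dye that carries an aromatic amine group and is known as a liver carcinogen of rodents. Mouse livers were followed in 4 AAT arrays, 1 each at 4 h, 20 h, 14 days and 28 days after dosing, and each was set against the olive oil array of the same time. These 8 arrays were chosen by their titles, from 52 arrays in all. The AAT dose was 300 mg/kg. Each array held RNA pooled from the livers of 5 male B6C3F1 mice, a hybrid strain with no genetic modification named in the labels, that were 9 weeks old when they were dosed once by intraperitoneal injection. The control pools received olive oil alone. To tell AAT from a departure of that single control array, the AAT array was also set against the arrays of DMBA and DBP, polycyclic aromatic hydrocarbons with 4 arrays each that share the same olive oil arrays. DMBA is 7,12-dimethylbenz[a]anthracene and was given at 20 mg/kg. DBP is dibenzo[a,l]pyrene, at a dose of 6 mg/kg. The doses of the 3 chemicals differ, so a difference between AAT and the hydrocarbons is one between these treatments, not between equal amounts.

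The liver answers foreign chemicals through receptors that turn on the enzymes that remove them. The aryl hydrocarbon receptor (AhR) is bound by planar aromatic compounds and drives Cyp1a1 and Cyp1a2, and CYP1A2 oxidises the nitrogen of many aromatic amines, the step that makes them reactive towards DNA. The receptors CAR and PXR drive the Cyp2b, Cyp2c and Cyp3a enzymes. NRF2, the product of Nfe2l2, drives glutathione synthesis, glutathione S-transferases and quinone reduction when electrophiles are present, and p53 drives cell-cycle arrest and repair genes after DNA damage.

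Median intensities before scaling ran from 50.8 to 100.2 over the 16 arrays, lowest for AAT at 14 days and highest for AAT at 20 h. Signals are on a scale where every array has the same median (76.6) and values under 32.5 are raised to that floor, so a fold against a gene at the floor is a lower bound, written as "at least". The liver label was checked on albumin (Alb), which lay between 8606 and 14444 in the 16 arrays. The summed signal of 10 hepatocyte markers was 61636 in the AAT array at 20 h, against 72565 to 77556 in the other 3 arrays of that time, and 93309 at 14 days, against 68637 to 78932. All 10 markers lay above olive oil at 14 days, with a median log2 ratio of 0.37. These 2 arrays also had the highest and the lowest median before scaling. Scaling to one median lowers all signals of the 20 h array and raises those of the 14 day array relative to the others. The part of this scaling in the marker sums, and in other abundant genes lower at 20 h, was not tested. In such bulk RNA, fewer cells of a type and less RNA per cell cannot be told apart.

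The Cyp1a1 and Srxn1 promoters are shown first, because Cyp1a1 had the largest first-day difference in the fit and Srxn1 was among the most raised oxidative stress genes at 20 h. Both are RefSeq windows from build GRCm38.p6, on the plus strand, with 250 bases before and 50 after the start of the gene. Capitals in the Cyp1a1 window (chr9:57697363-57697662) mark GCGTG, the core letters of the AhR response element, searched on both strands. Capitals in the Srxn1 window (chr2:152105274-152105573) mark TGACNNNGC and TGAGNNNGC, forms of the antioxidant response element that NRF2 binds, on either strand.
Cyp1a1: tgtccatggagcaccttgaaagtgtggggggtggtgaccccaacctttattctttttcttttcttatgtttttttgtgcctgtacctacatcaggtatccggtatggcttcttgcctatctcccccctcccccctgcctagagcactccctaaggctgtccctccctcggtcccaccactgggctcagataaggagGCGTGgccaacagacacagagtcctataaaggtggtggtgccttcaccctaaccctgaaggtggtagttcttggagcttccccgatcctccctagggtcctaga
Srxn1: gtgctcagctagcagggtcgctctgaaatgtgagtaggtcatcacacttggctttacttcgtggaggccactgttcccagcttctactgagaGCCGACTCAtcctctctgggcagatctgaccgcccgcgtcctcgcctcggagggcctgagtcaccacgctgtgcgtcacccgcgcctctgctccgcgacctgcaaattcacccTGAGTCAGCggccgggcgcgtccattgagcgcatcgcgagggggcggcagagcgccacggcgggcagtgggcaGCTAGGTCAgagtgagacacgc
The match in Cyp1a1 begins 54 bases before the start of the gene. GCGTG was found in 32.4% of 32851 promoter windows of this length, TGACNNNGC in 12.4% and TGAGNNNGC in 17.6%. Each match describes these letters only.

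The AAT array stood furthest from the other arrays at 20 h. A gene was counted when AAT was at least 2-fold above, or at least 2-fold below, each of the olive oil, DMBA and DBP arrays of its time, among 10574 genes tested. At 20 h 77 genes were higher (0.728% of genes) and 56 lower (0.53%). At 4 h the numbers were 17 higher (0.161%) and 39 lower (0.369%), at 14 days 14 higher (0.132%) and 15 lower (0.142%), and at 28 days 6 higher (0.0567%) and 8 lower (0.0757%). The same rule applied to the other arrays gives the background of single arrays. At 20 h it found 33 genes for DMBA, 26 for DBP and 23 for olive oil, against 133 for AAT. At 4 h it found 28, 38 and 33, against 56 for AAT. At 14 days AAT had fewest (29, against 61, 50 and 41) and at 28 days again (14, against 43, 23 and 25). With 1 array per chemical and time these counts have no test.

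**Figure D1:**
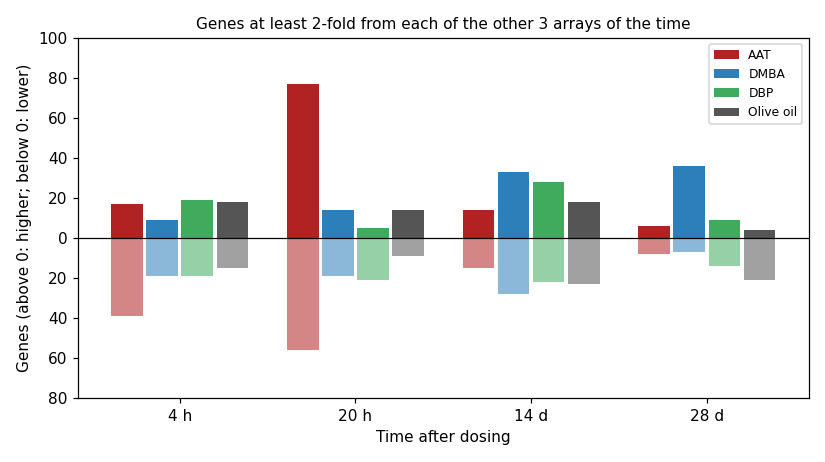
Number of genes (vertical axis) at least 2-fold above (solid bars, upward) or below (pale bars, downward) each of the other 3 arrays of the same time, for the AAT, DMBA, DBP and olive oil arrays at 4 h, 20 h, 14 days and 28 days (horizontal axis). The bars for AAT at 20 h, 77 genes higher and 56 lower, are the longest.

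Against olive oil alone the counts were larger at every time. They were 133 genes higher (1.26%) and 159 lower (1.5%) at 4 h, and 201 higher (1.9%) and 157 lower (1.48%) at 20 h. They were 137 higher (1.3%) and 118 lower (1.12%) at 14 days, and 71 higher (0.671%) and 62 lower (0.586%) at 28 days. Many of the genes at 14 days were thus not 2-fold from the hydrocarbon arrays, and a ratio to olive oil alone carries the departure of that control pool as well as that of AAT.

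Times were used as repeats in a limma fit of the 16 arrays with each time as a block, so its errors measure the spread between 2 times of one kind and not the spread between mice. On the first day (4 and 20 h) AAT differed from olive oil in 8 genes at an adjusted p under 0.05, 5 higher (0.0473%) and 3 lower (0.0284%). Against the mean of DMBA and DBP it differed in 33, 9 higher (0.0851%) and 24 lower (0.227%). The balance of the 33 was not stable, with 13 higher and 13 lower after quantile normalization. The xenobiotic enzymes Cyp1a1, Cyp2b10 and Cyp1a2 and the phosphatase Dusp6 were higher in both comparisons. The receptor Lrp1, the chemokine Cxcl1 and the steroid enzyme Hsd3b2 were lower in both. Pmm1 was also called higher in both, but it entered the test only through the 2 first-day AAT arrays, the only ones above the floor. No gene passed over all 4 times in either comparison, where 531 and 968 genes had an unadjusted limma p under 0.05. With no true difference a share of 0.05 of the 10574 genes would, which 531 is close to and 968 exceeds. Without the 14 day or the 28 day arrays the first-day counts were 0 and 0. Those fits keep the same first-day arrays and differences, with 3 residual degrees of freedom in place of 6. These 0 counts therefore do not tell whether the first-day differences depend on the late arrays. Without the 4 h or the 20 h arrays each chemical has 1 first-day array, so the counts of those fits do not test the first-day differences. Fitted without the DMBA arrays the counts were 2 and 1, without the DBP arrays 2 and 2, and with the AAT and olive oil arrays alone 0 genes passed against olive oil.

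Cyp1a1, the classic AhR target that oxidises planar aromatic compounds, had the largest difference of the called genes. Its signal in AAT was 3087 at 4 h, 5251 at 20 h, 152 at 14 days and 117 at 28 days. In olive oil it was 146, 109, 85.8 and 65.0 at the same times. AAT thus stood 21.2-fold above olive oil at 4 h and 48.2-fold at 20 h, while the 2 late arrays were within 1.79-fold. DMBA, itself an AhR ligand, reached 203 and 372 on the first day, and DBP 71.4 and 125, so the AAT array was 15.2-fold above the highest of the other 3 arrays at 4 h and 14.1-fold at 20 h. The first-day difference was 5.00 on the log2 scale (SE 0.29, limma adjusted p = 6.17e-05) against olive oil and 4.64 (SE 0.25, adjusted p = 3.5e-05) against the hydrocarbons.

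Cyp1a2, which N-hydroxylates aromatic amines, was abundant in every array and differed less. The AAT signals were 8439, 9098, 5113 and 4619 from 4 h to 28 days, and those of olive oil 4688, 3238, 3400 and 4289. Both first-day AAT values lay above all 12 arrays of the other treatments, and the 28 day value was 1.08-fold that of olive oil. Its first-day difference from olive oil was 1.17 (SE 0.17, limma adjusted p = 0.042) and from the hydrocarbons 1.02 (SE 0.14, adjusted p = 0.0263). Of the other 14 tested AhR targets, Nqo1, Fmo2, Gstm3, Nfe2l2 and Cbr3 were at least 2-fold above all 3 arrays at 20 h. That makes 7 of 16 members beside 0.728% of all genes. Nqo1, Gstm3, Nfe2l2 and Cbr3 are also on the NRF2 list, so they count in both lists. The Fmo2 value is that of its brightest probe set, with a log2 ratio to olive oil of 1.795 at 20 h. Its other probe sets gave 0 and -0.42 at that time. Cyp1b1 was not raised, with 102 in AAT and 83.7 in olive oil at 4 h, and 52.8 and 74.5 at 20 h. The median log2 ratio of the list to olive oil was 0.44 at 4 h and 1.01 at 20 h, then 0.20 and 0.09, while that of all genes was between -0.04 and 0.01. Pmm1, a phosphomannomutase on the AhR list, was near the floor, with 53.5 and 60.3 in AAT on the first day and the floor in the other 14 arrays. Its first-day difference was 0.80 (SE 0.11, limma adjusted p = 0.042) against olive oil and 0.80 (SE 0.10, limma adjusted p = 0.0137) against the hydrocarbons. These values depend on the floor. Pmm1 also passed the filter only through the 2 AAT arrays where it was high, so its call is no support for a difference. Tiparp, a short-lived AhR feedback gene, had 434 in AAT at 4 h against 248 in olive oil, and 162 against 160 at 20 h.

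Cyp2b10, the standard reporter of CAR in mouse liver, was raised at the same times as Cyp1a1. Its AAT signals were 3217, 4069, 151 and 155, and those of olive oil 269, 73.1, 108 and 115. The 20 h ratio to olive oil was 55.7-fold and the smallest of the 3 ratios at that time was 31.9-fold, to DBP. The first-day difference was 4.69 (SE 0.38, limma adjusted p = 0.000765) against olive oil and 4.55 (SE 0.33, adjusted p = 0.000251) against the hydrocarbons. Its probe set can also read related Cyp2b transcripts, but the other 2 probe sets named for the gene gave first-day differences from olive oil of 4.97 and 4.65. The hydrocarbon arrays had 191 and 262 at 4 h, below the 269 of olive oil.

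Other CAR and PXR targets were higher at 20 h, with 4 h values nearer those of olive oil. Cyp2c55, an arachidonic acid oxidising enzyme, had 2277 in AAT at 20 h against 178 in olive oil, and 511 against 351 at 4 h. Gstt3 had 811 against 231 at 20 h, and 480 against 537 at 4 h. Epoxide hydrolase Ephx1 had 4609 against 2034 at 20 h and 2816 against 2980 at 4 h. In all, 6 of 29 tested members were at least 2-fold above the 3 other arrays at 20 h (0.728% of all genes). At 4 h it was 1 of 29 (0.161%). Of the 20 h genes, Gsta2 and Ephx1 are also on the NRF2 list. Cyp3a11, the main PXR target, was flat, at 6524 in AAT and 7245 in olive oil at 20 h.

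Alas1, the rate-limiting enzyme of heme synthesis and a CAR and PXR target, was the exception in its time course. Its AAT signals were 6139, 3673, 2107 and 2181, and those of olive oil 4103, 1006, 672 and 1117. AAT was above olive oil at every time, by 1.5-fold to 3.65-fold. At 14 days DMBA (1656) and DBP (1296) also lay above the olive oil pool, and at 28 days DMBA had 2176, so only at 20 h was AAT 2-fold above all others. Its difference over 4 times was 1.27 (SE 0.20), with a limma adjusted p of 0.186.

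**Figure D2:**
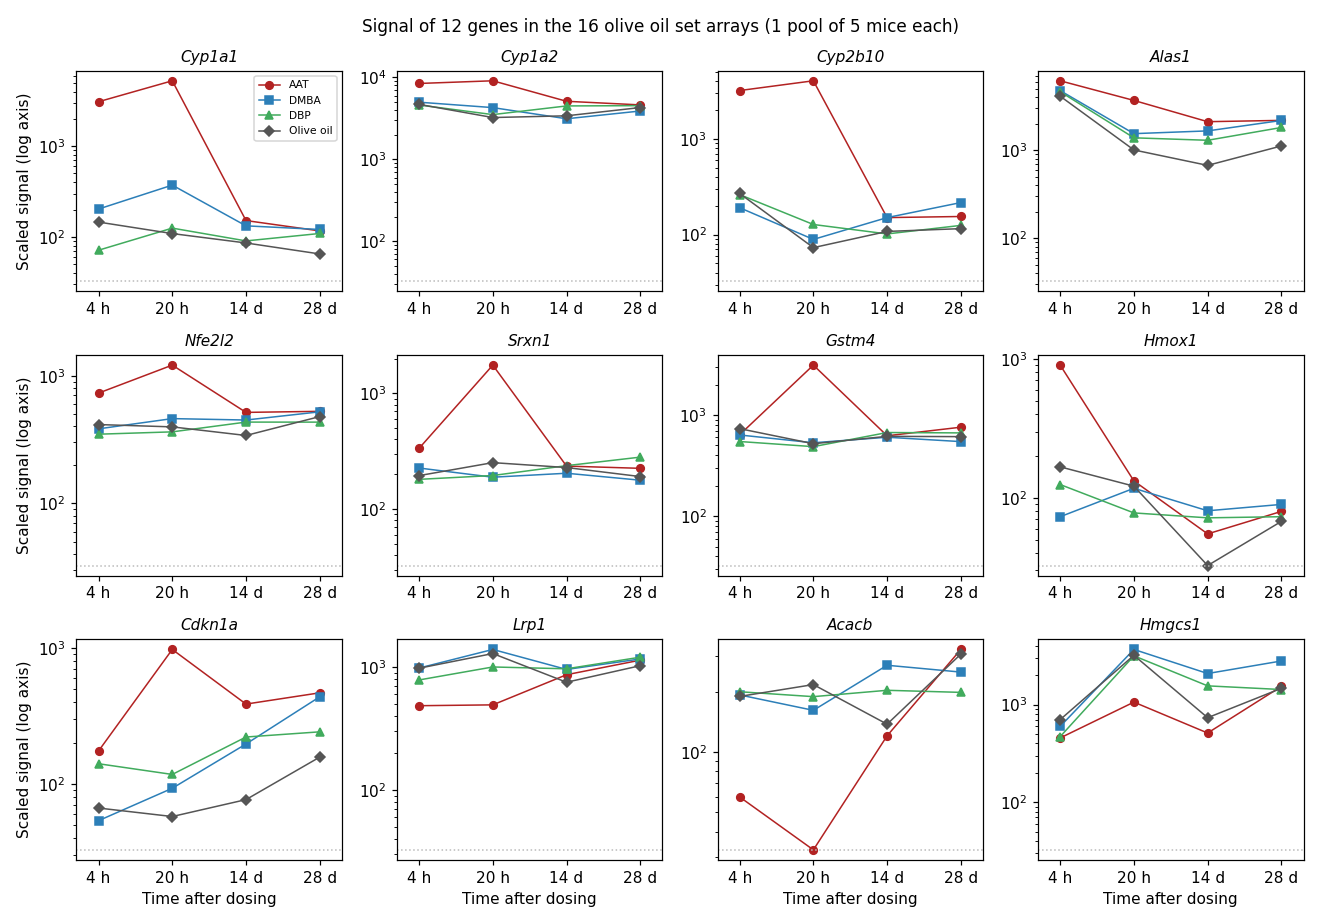
Scaled signal (vertical log axis) of 12 genes at 4 h, 20 h, 14 days and 28 days (horizontal axis), 1 point per array of AAT, DMBA, DBP or olive oil, with the floor of 32.5 as a dotted line. Cyp1a1 and Cyp2b10 are raised in the AAT arrays at 4 h and 20 h, Srxn1 and Gstm4 at 20 h, and Hmox1 at 4 h, and in all 5 genes the AAT point is near the others by 14 days.

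NRF2 targets were higher at 20 h. Of 36 tested members, 33 lay above olive oil, as did 47.0% of all genes, and 15 were at least 2-fold above all 3 arrays (0.728% of all genes), with a median log2 ratio to olive oil of 0.82, to DMBA of 0.67 and to DBP of 0.81. At 4 h 19 of 36 lay above olive oil (39.1% of all genes), and 1 of 36 was 2-fold above all 3 (0.161%). At 14 and 28 days none was. Sulfiredoxin Srxn1, which repairs oxidised peroxiredoxins, had 335 in AAT at 4 h and 1756 at 20 h, against 195 and 252 in olive oil. Its 4 probe sets gave log2 ratios at 20 h of 2.80, 3.69, 3.32 and 0.67, so 1 of them was much lower than the rest. The quinone reductase Nqo1 had 137 and 450 against 114 and 76.5. The carbonyl reductase Cbr3 was at the floor in the other 3 arrays of 20 h and had 427 in AAT, at least 13.1-fold higher.

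Gclc, the catalytic subunit that makes the first bond of glutathione, had 3837 in AAT at 20 h and 1419 in olive oil, while Gclm, its modifier subunit, had 1213 and 1133. Of 20 tested glutathione S-transferases, which join glutathione to electrophiles, 6 were at least 2-fold above all 3 arrays at 20 h (0.728% of all genes). None was at 4 h (0.161%). All of these 6 but Gstt3 are also on the NRF2 list and counted there. Gstm4 had 638 in AAT at 4 h and 3110 at 20 h, against 733 and 520 in olive oil. Gstm3 had 2254 and 6321, against 2270 and 1203. Gsta2 had 1049 and 1982, against 1195 and 472. The alpha and mu enzymes are close relatives whose probe sets can share transcripts, so the order among them is uncertain.

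Nfe2l2 itself, which encodes NRF2, was the member that passed the first-day fit. Its AAT signals were 731 at 4 h and 1211 at 20 h, against 414 and 397 in olive oil, 383 and 461 in DMBA, and 348 and 363 in DBP. The first-day difference from the hydrocarbons was 1.28 (SE 0.16, limma adjusted p = 0.0137), and that from olive oil 1.21 (SE 0.18, adjusted p = 0.0602). The late AAT values, 516 and 526, lay beside 340 and 478 in olive oil.

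Hmox1, heme oxygenase, followed another course. It had 902 in AAT at 4 h, against 167 in olive oil, 125 in DBP and 73.1 in DMBA, and 132 at 20 h against 121. It was the one NRF2 target at least 2-fold above all 3 arrays at 4 h, and it was not so at 20 h when 15 others were. The change between 4 and 20 h was not tested.

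Heat shock chaperones were also higher at 20 h. Of 20 tested members, 17 lay above olive oil (47.0% of all genes), 9 by at least 2-fold (1.9%) and 5 at least 2-fold above all 3 arrays (0.728%), with a median log2 ratio of 0.69. At 4 h that median was -0.07. The small chaperone Hspb1 had 287 in AAT at 4 h and 1573 at 20 h, against 392 and 348 in olive oil. Hsph1 had 318 and 678, against 392 and 196. Of the inducible HSP70 genes, Hspa1b had 916 in AAT at 20 h, against 395 in olive oil, 615 in DMBA and 680 in DBP. Its 3 probe sets gave log2 ratios to olive oil of 1.32, 2.20 and 1.21 at 20 h. The probe set of Hspa1a was near the floor at 20 h, at 39.2 in AAT and 32.5 in olive oil, and these near-identical genes may share transcripts.

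Enzymes of aromatic amine metabolism differed among themselves. Of 23 tested, 6 were at least 2-fold above all 3 arrays at 20 h (0.728% of all genes). They were Cyp1a1, Cyp1a2, Nqo1, Cbr1, Ephx1 and the aldehyde oxidase Aox1. All of them but Aox1 are also among the AhR or NRF2 list members counted above. Aox1 had 823 and 1576 in AAT on the first day, against 631 and 612 in olive oil. Nat2, which acetylates aromatic amines, had 145 in AAT at 20 h and 222 in olive oil, and Sult1a1, which sulfonates their hydroxylated forms, had 2187 and 2258. Ugt2b34, a glucuronosyltransferase, had 3892 and 2403.

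The p53 targets were split. At 20 h 9 of 36 tested members were at least 2-fold above all 3 arrays and 1 was 2-fold below (background 0.728% and 0.53%), while the median log2 ratio to olive oil of the list was 0.24 and 14 members lay below olive oil. Cdkn1a, the cyclin-dependent kinase inhibitor p21, had the largest ratio of the list at 20 h. Its AAT signals were 174, 977, 386 and 468, and those of olive oil 66.2, 57.3, 76.3 and 157. At 20 h it was 17.0-fold above olive oil and 8.34-fold above DBP, the highest of the other 3. A dimmer probe set of Cdkn1a, at the floor in 9 of the 16 arrays, differed less. Its log2 ratio to olive oil was 0.06 at 4 h and 1.51 at 20 h, against 1.40 and 4.09. At 4 h the DBP array (140) and at 28 days the DMBA array (437) were close to AAT.

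The ubiquitin ligase Mdm2, which degrades p53, had 320 and 547 in AAT on the first day and 171 and 166 in olive oil. Ccng1 had 237 at 4 h, level with 260 in olive oil, and 865 at 20 h against 285. Phlda3, an inhibitor of AKT, had 491 at 20 h against 147, and Plk2 had 341 against 70.5. Pidd1 was the member 2-fold below, with 38.8 in AAT at 20 h and 85.1 to 102 in the others. Trp53inp1, a p53-induced promoter of cell death, was the member that passed the first-day fit against the hydrocarbons, by 1.07 (SE 0.18, limma adjusted p = 0.0468). Its AAT signals were 910 and 1016, those of DMBA 531 and 537, and those of DBP 442 and 348. Against olive oil Trp53inp1 did not pass the first-day fit.

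At 14 days 7 of 36 p53 targets were at least 2-fold above olive oil, where 1.3% of all genes were, and 0 were so above all 3 arrays. Cdkn1a had 386 in AAT, 196 in DMBA, 221 in DBP and 76.3 in olive oil. Btg2, an antiproliferative gene, had 221, 215, 140 and 77.0 in the same order. The 3 carcinogen arrays thus lay on one side and the olive oil pool on the other for these genes, with AAT less than 2-fold above the higher hydrocarbon array.

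DNA repair and cell-cycle genes stood near olive oil as lists. Over 44 tested repair genes the median log2 ratio to olive oil was 0.00 at 4 h and at 20 h, and none was 2-fold above all 3 arrays. Over 32 cell-cycle genes the median was 0.00 at both times, with E2f1 2-fold above all 3 arrays and Tk1 below at 20 h. E2f1, a factor of S phase entry, had 85.3 in AAT and 32.5 to 35.1 in the others. Thymidine kinase Tk1, at the floor in AAT at 20 h, was at least 4.24-fold below the lowest of the other 3 arrays (138 to 175). Ung, the uracil glycosylase of base excision repair, had 43.1 in AAT at 4 h and 104 to 126 in the others.

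**Figure D3:**
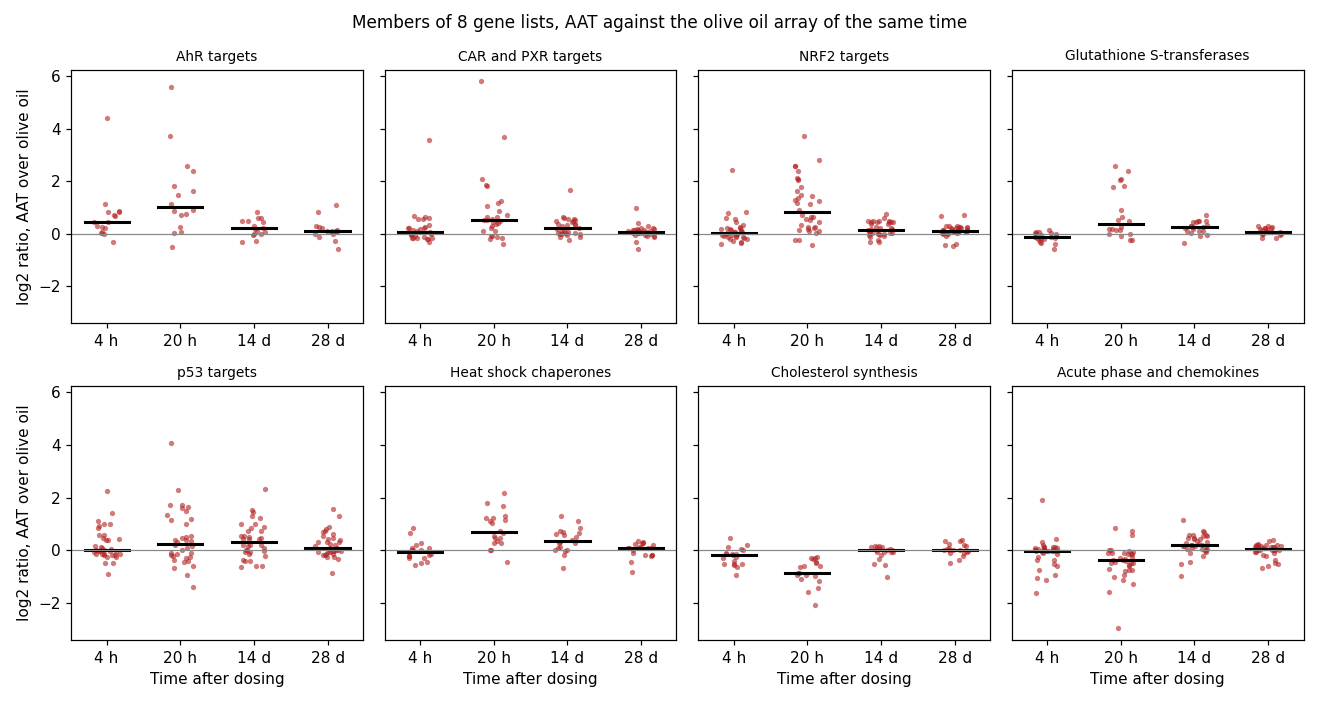
The log2 ratio of AAT to the olive oil array of the same time (vertical axis) for each tested member (point) of 8 gene lists, at 4 h, 20 h, 14 days and 28 days (horizontal axis), with the median of the list as a bar. The NRF2 median is 0.82 at 20 h and the cholesterol synthesis median is -0.87, and at 14 and 28 days they are 0.15 and 0.10 for NRF2 and 0.00 and 0.02 for cholesterol synthesis.

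Cholesterol synthesis was lower at 20 h in every tested member. All 19 lay below olive oil (47.2% of all genes), 5 by at least 2-fold (1.48%) and 4 at least 2-fold below all 3 arrays (0.53%), with a median log2 ratio of -0.87 to olive oil, -1.22 to DMBA and -0.88 to DBP. Hmgcs1, the synthase at the head of the pathway, had 1060 in AAT at 20 h, against 3669 in DMBA, 3158 in DBP and 3195 in olive oil. Fdps, which makes farnesyl diphosphate, had 1064 against 2297 to 2773. Sqle, the squalene epoxidase, had 312 against 575 to 799. None of these passed the first-day fit, where their limma adjusted p was 0.458, 0.6 and 0.505 against olive oil. At 14 days the median was 0.00 to olive oil but -0.87 to DMBA, and there AAT and olive oil lay together (Hmgcs1 511 and 734, against 2080 in DMBA and 1555 in DBP).

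Acacb, the mitochondrial acetyl-CoA carboxylase whose product restrains fatty acid oxidation, was lower on both first-day times. Its AAT signal was 59.7 at 4 h and at the floor at 20 h, against 189 and 217 in olive oil, 192 and 161 in DMBA, and 200 and 189 in DBP. It was at least 4.96-fold below the lowest of the others at 20 h, and at 28 days it had 324 in AAT and 307 in olive oil. The first-day fall was 2.07 against the hydrocarbons (SE 0.32, limma adjusted p = 0.036). The log2 difference from olive oil, -2.20, did not pass (limma adjusted p = 0.102). Of the 22 fatty acid synthesis genes tested it was the one 2-fold below all 3 arrays at either time. Dmbt1, a secreted mucosal protein, had 112 and 88.6 in AAT on the first day and 231 and 260 in olive oil. It fell by 1.53 against the hydrocarbons (SE 0.19, limma adjusted p = 0.0137), while its log2 difference from olive oil, -1.30, did not pass (limma adjusted p = 0.0956). Fabp5, a fatty acid binding protein, had 274 in AAT at 20 h against 1899 to 2447 in the others.

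Lrp1, an endocytic receptor of the hepatocyte surface, was lower at both first-day times by a similar amount. Its AAT signals were 486 and 493 on the first day and 868 and 1141 late, and those of olive oil 981, 1292, 754 and 1029. Both first-day values lay below all 14 other arrays. The difference was -1.20 (SE 0.12, limma adjusted p = 0.00461) against olive oil and -1.06 (SE 0.10, adjusted p = 0.00387) against the hydrocarbons. Hsd3b2 and Hsd3b5, steroid dehydrogenases of which Hsd3b5 is male-biased in mouse liver, were also lower. Hsd3b2 had 124 and 127 in AAT and 265 in olive oil at both times, a log2 difference of -1.08 (SE 0.14, limma adjusted p = 0.0232). Hsd3b5 had 671 and 695 in AAT and 1244 and 1505 in olive oil, and was lower than the hydrocarbons by a log2 difference of -1.05 (SE 0.13, limma adjusted p = 0.0137). The 2 genes are similar in sequence and their probe sets may share transcripts. Among 15 male-biased genes tested, Hsd3b5 was the one 2-fold below all 3 arrays at 20 h.

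Acute phase genes and chemokines were lower in AAT at 20 h. Of 35 tested members, 30 lay below olive oil (47.2% of all genes) and 4 were at least 2-fold below all 3 arrays (0.53%), with a median log2 ratio of -0.39. At 4 h 19 lay below (55.1% of all genes), with a median of -0.03. Cxcl1, a neutrophil-attracting chemokine, had 510 and 61.5 in AAT on the first day, against 1596 and 482 in olive oil, and fell by 2.31 (SE 0.31, limma adjusted p = 0.0368). The control pools themselves differed with time, as Cxcl1 was 1596 at 4 h and 46.0 at 14 days in olive oil. Apcs (serum amyloid P) had 1446 and 3185 in AAT on the first day, against 2181 and 5518 in olive oil, where it did not pass the fit. It fell by 0.86 (SE 0.13, limma adjusted p = 0.0303) against the hydrocarbons. Of the 35 members 3 passed that test, all lower (0.227% of all genes), namely Cxcl1, Apcs and Serpina3n, the last by a log2 difference of -0.67. Lcn2, lipocalin, had 1743 in AAT at 20 h and 4248 to 5355 in the others, and Saa2 had 5125 against 6577 to 7626. The neutrophil marker list had a median log2 ratio of -0.46 at 4 h and 0.12 at 20 h with 0 of 10 members 2-fold below all 3 arrays.

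Metallothioneins, which bind zinc and are raised by glucocorticoids and by injury, were lower at 20 h as well. Mt1 had 7916 in AAT at 4 h, beside 7474 in olive oil, and 1796 at 20 h against 6429 to 8973 in the others. Mt2 had 1244 at 20 h against 3797 to 5544. In the fasting and glucocorticoid list, the median log2 ratio at 4 h was 0.32 to olive oil, 0.15 to DMBA and 0.02 to DBP, with 7 of 23 members at least 2-fold above olive oil (1.26% of all genes) and 3 above all 3 arrays (0.161%). At 20 h 4 members were 2-fold below olive oil (1.48%). Igfbp1, an insulin-suppressed binding protein, had 5359 in AAT and 1101 in olive oil at 4 h, but 165 and 1400 at 20 h. The hydrocarbon arrays at 4 h, 3438 and 2355, also lay above the control.

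Dusp6, a phosphatase that switches off ERK kinases and is itself an ERK target, was 365 and 568 in AAT on the first day. It was 161 and 164 in olive oil, 245 and 225 in DMBA, and 161 and 186 in DBP. The first-day difference from olive oil was 1.49 (SE 0.17, limma adjusted p = 0.0124). At 4 h several regulators stood far below the other arrays. The growth hormone feedback gene Socs2 was at the floor in AAT and 154 to 200 in the others, at least 4.75-fold lower. The transcription regulator Id2 had 271 against 984 to 1222, and the hepatocyte factor Onecut1 had 67.5 against 242 to 351.

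Whether the first-day differences exceeded the late ones was tested in the same fit. The AAT minus olive oil difference changed from the first day to the late times in 3 genes (0.0284%), Cyp1a1, Cyp2b10 and Lrp1. The difference from the hydrocarbons changed in 5 (0.0473%), namely Cyp1a1, Cyp2b10, Dusp6, Hsd3b5 and Hsd3b2. Cyp1a1 was larger on the first day by 4.17 (SE 0.42, limma adjusted p = 0.00719) against olive oil, and Cyp2b10 by 4.24 (SE 0.54, adjusted p = 0.041). Without the DMBA arrays both counts were 0. Leaving out any time leaves 1 array per chemical on the first day or late, so no counts are given for those fits.

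**Figure D4:**
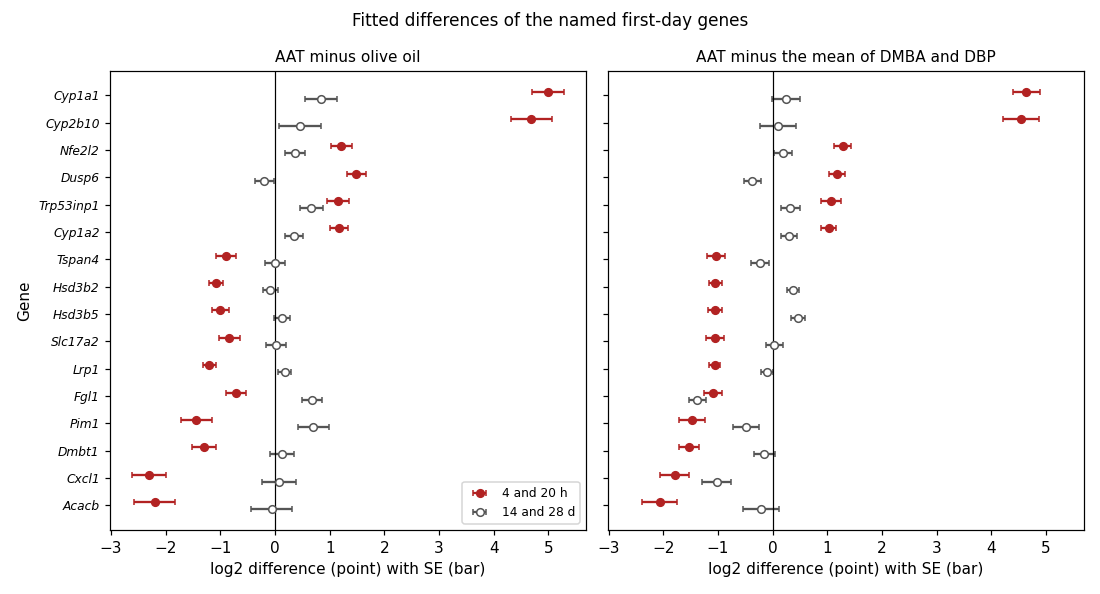
Fitted log2 difference (horizontal axis, point with SE bar) of 16 genes named from the first-day fits, for the first day (filled) and for 14 and 28 days (open), against olive oil (left) and against the mean of DMBA and DBP (right). The first-day points of Cyp1a1 and Cyp2b10 lie between 4.55 and 5.00 and their late points between 0.10 and 0.83.

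At 14 and 28 days no gene passed against olive oil, where 495 genes had an unadjusted limma p under 0.05. That number is no more than the share of 0.05 of the 10574 genes found with no true difference. Against the hydrocarbons 2 genes passed (0.0189%), Saa2 and Fgl1, both acute phase proteins of the hepatocyte. Saa2 had 154 and 169 in AAT, 2419 and 1325 in DMBA, 323 and 149 in DBP, and 167 and 148 in olive oil. For Saa2 the AAT arrays were thus level with olive oil, and the DMBA arrays stood apart. Fgl1 had 886 and 829 in AAT and 3158 and 4120 in DMBA, against 461 and 621 in olive oil. Its late log2 difference was 0.68 from olive oil, which did not pass. From the mean of DMBA and DBP it was -1.38 (SE 0.16, limma adjusted p = 0.0232). The count against the hydrocarbons was 0 when the DMBA arrays were left out. It was also 0 without the 4 h or the 20 h arrays. Those fits keep the same late arrays and differences, with fewer residual degrees of freedom. They therefore do not tell whether the late differences depend on the first-day arrays. Without the 14 day or the 28 day arrays no chemical has a repeat at the late times, so those fits do not test the late differences.

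No xenobiotic list kept members 2-fold above all 3 arrays at the late times. The NRF2, AhR, CAR and PXR, and glutathione S-transferase lists had 0 such members at 14 and at 28 days, where the background was 0.132% and 0.0567%. Their medians to olive oil were between 0.15 and 0.26 at 14 days and between 0.07 and 0.10 at 28 days. The zinc exporter Slc30a1 was among the 8 genes below all 3 arrays at 28 days, with 58.4 at 14 days and the floor at 28 days, at least 3.2-fold below the others of 28 days (104 to 118).

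Markers of other cells stood near the other arrays. None of 17 sinusoidal endothelial, 19 stellate and collagen, 12 lymphocyte or 10 neutrophil markers was 2-fold from all 3 arrays at any time. The macrophage list had Mpeg1 below at 20 h and 17 tested members with a summed signal of 4200 in AAT against 4752 to 5106. The cholangiocyte and progenitor list summed to 4463 against 2868 to 3298 at 20 h, mainly through Krt8 and Krt18, keratins that hepatocytes also make (2059 and 1948 in AAT, against at most 1340 and 1504), while Krt19 was at the floor in AAT. The pancreatic, adipose and muscle lists had no member 2-fold from all 3 arrays. The part of cell make-up in the results above was not tested.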

How the data were processed

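Liver RNA was measured on 52 Affymetrix arrays, each from a pool of 5 mice. The deposited values are linear intensity per probe set from the authors. Their software and scaling were not stated in the sources used here. The array type named in the methods differs from that of the annotation. Of 22690 probe sets, 64 controls were removed. All 52 arrays were scaled to one median (76.6), floored at the 30th percentile of their scaled values (32.5) and taken as log2. The 16 arrays of AAT, DMBA, DBP and olive oil were then used. A probe set was tested where 2 or more of these 16 arrays exceeded the floor (17979). The brightest probe set with 1 symbol stood for a gene (10574 genes). Between 28.1% and 30.5% of values per array of the 16 were at the floor. The number of arrays limits the precision.

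Differences were fitted in R 4.3.3 with limma 3.58.1 (variance trend, time as a block). They were adjusted by Benjamini-Hochberg over all 17979 probe sets tested, with a threshold of 0.05. The scripts were tested on simulated data. Named genes were the largest differences of each comparison and time with the higher side at least 4 times the floor, genes in the study text that belong to a list, and the leading members of each list. Other list members named were chosen after their values were seen. The members and lists were chosen with earlier results of these data known. Alternatives changed the normalization, floor, filter, block, variance trend and the arrays in the fit.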

Additional observations from a re-analysis of the deposited data

Results flagged for a closer look

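The difference between AAT and the comparison arrays was itself different on the first day (4 and 20 h) and at the late times (14 and 28 days) in these genes. The limma test of that change had times as repeats and was adjusted over 17979 probe sets, from which the 10574 genes were taken. Against olive oil the first-day difference exceeded the late one by 4.17 for Cyp1a1 (SE 0.42, adjusted p = 0.00719) and by 4.24 for Cyp2b10 (SE 0.54, adjusted p = 0.041) in limma. For Lrp1 it was lower, by a change of -1.38 (SE 0.17, limma adjusted p = 0.0399). Against the mean of DMBA and DBP the change was 4.40 for Cyp1a1 (SE 0.36, limma adjusted p = 0.00161) and 4.45 for Cyp2b10 (SE 0.47, limma adjusted p = 0.00871). It was 1.55 for Dusp6 (SE 0.21, limma adjusted p = 0.0481). It was -1.51 for Hsd3b5 (SE 0.19, limma adjusted p = 0.0219) and -1.42 for Hsd3b2 (SE 0.17, limma adjusted p = 0.0199).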

How the results depend on the processing

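Counts of called genes depended on the arrays in the fit. The ranges below for leaving a time out include fits with 1 array per chemical on the first day or late. Their upper ends come from such fits, which have no repeat in that period. The other fits without a time keep the arrays of that period, with fewer residual degrees of freedom. These ranges therefore do not tell how stable the counts are. The first-day count against olive oil was 8, and became 14 with genes above the floor in every array, 5 without a time block, 5 without the variance trend, 2 without DMBA, 2 without DBP, 0 with AAT and olive oil alone and 5 with all 52 arrays, and ran from 0 to 21 when a time was left out. Against the hydrocarbons it was 33, and became 93, 5, 8, 1 and 2 under the first 5 of these, and from 0 to 38 without a time. The late count against the hydrocarbons was 2, and became 4 with quantile normalization, 5 with no floor, 5 with the stricter filter, 0 without a time block, 0 without the trend, 0 without DMBA and 4 without DBP, and from 0 to 12 without a time. First day minus late against olive oil was 3, and became 1 without a time block and 1 without the trend. It was 0 without DMBA, 0 without DBP and 0 with AAT and olive oil alone. Against the hydrocarbons it was 5, and became 1, 3, 0 and 0 under the first 4 of these. Over 4 times the fit of all 52 arrays called 1 gene against olive oil and 5 against the hydrocarbons, where the 16 arrays called 0. In 1 alternative the floor value was added to each signal in place of the floor, which shrinks ratios of low signals. The genes 2-fold from olive oil were then 145 at 4 h, 220 at 20 h, 139 at 14 days and 73 at 28 days. With genes above the floor in every array they were 139, 216, 103 and 43 at these times. Those 2-fold from all 3 arrays were, in the same order of alternatives, 28 and 22 at 4 h, 13 and 9 at 14 days, and 4 and 3 at 28 days. Of 861 alternatives for single genes, 246 lost the call, 18 gained it, 95 values without a test moved, and 0 reversed. The other 502 were unchanged. They include genes called in neither fit and values without a test that moved little, so they are not a number of calls kept. The cause was not tested. Time matched each AAT array with the comparison arrays of its time in the fit. No paired analysis was possible beyond this time block, because the labels give each group 1 replicate.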

Other observations

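Several gene groups not described above had few members far from the other arrays. Of 22 immediate early genes, which respond within minutes to growth factors and stress, the median log2 ratio of AAT to olive oil was 0.24 at 4 h and -0.02 at 20 h, with Junb 2-fold below all 3 arrays at 20 h and Egr3 at 14 days. Of 32 PPAR-alpha and fatty acid oxidation genes, Pdk4 was above and Acot3 below all 3 arrays at 4 h, Acot1 was above at 20 h and Cyp4a14 below at 14 days. Of 31 ER stress and amino acid response genes none was 2-fold from all 3 arrays at any time, and the median was -0.12 at 20 h and 0.34 at 14 days. None of 24 bile acid genes or 26 interferon-stimulated genes was 2-fold from all 3 arrays at any time. Of 18 circadian clock genes, Nfil3 was below all 3 arrays at 20 h, and the median was -0.30 at 4 h. Of 13 periportal markers, 9 lay below olive oil at 20 h, with a summed signal of 33628 in AAT against 39097 to 42400, and of 16 pericentral markers 13 lay below, although their summed signal was 32278 against 28877 to 33523. These are single-array values with no test.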
